A study of Homo sapiens with 6 samples.

Results

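The D cyclins and the RB pathway were followed through 9 genes on 6 whole-transcript expression arrays. The set was fixed by gene symbol: CCND1, CCND2 and CCND3 for the D cyclins, CDK4 and CDK6 for their kinases, CDKN2A and CDKN2C for inhibitors of those kinases, RB1, E2F1 and CCNE1. The platform annotation used here gave a probe set to 9 of these 10 symbols, and CDKN2C was not analysed here. The 9 stood among 14884 named genes, each read by its probe set with the highest mean over the 6 arrays. The arrays (Affymetrix Human Gene 2.0 ST) came from RPMI8226, KMS11 and U266, established human multiple myeloma lines grown from malignant plasma cells. Each line gave 1 array 48 h after transfection with 100 nM miR-10a mimic and 1 array after 100 nM scrambled control, both delivered with HiPerFect. Each line stands for 1 tumour in culture, and nothing in the labels tells of separate cultures for a line under 1 treatment. P-values measure only the spread between these arrays.

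D-type cyclins are the growth-factor-responsive partners of CDK4 and CDK6. The active kinases phosphorylate RB, the RB1 product, which otherwise holds E2F transcription factors silent. Freed E2F factors switch on the genes of DNA replication and CCNE1, whose product cyclin E drives CDK2 and closes the loop on RB. INK4 proteins such as the one from CDKN2A bind CDK4 and CDK6 and keep the D cyclins off them. In myeloma, a raised D cyclin is a common early event. Immunoglobulin rearrangements can place CCND1 or CCND3 beside a strong enhancer, and MAF, itself rearranged in another subset, is a known activator of CCND2.

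Sequences of the treatment and of 2 members are given first. The mimic is read through its seed, and these 2 promoters hold letters matching sites of E2F factors or of MYC and MAX. The sequences were copied from RefSeq tables on GRCh38.p14. The labels do not say which arm the mimic copies, so the 5p strand is shown as the arm usually meant by the name. It is encoded at chr17:48579904-48579926 on the minus strand, with its seed (bases 2 to 8) in capitals.
hsa-miR-10a-5p: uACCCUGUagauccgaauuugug
The E2F1 window runs from 250 bases before to 50 bases after the gene's start, at chr20:33686336-33686635 on the minus strand. Capitals mark matches to E2F letters.
E2F1 promoter: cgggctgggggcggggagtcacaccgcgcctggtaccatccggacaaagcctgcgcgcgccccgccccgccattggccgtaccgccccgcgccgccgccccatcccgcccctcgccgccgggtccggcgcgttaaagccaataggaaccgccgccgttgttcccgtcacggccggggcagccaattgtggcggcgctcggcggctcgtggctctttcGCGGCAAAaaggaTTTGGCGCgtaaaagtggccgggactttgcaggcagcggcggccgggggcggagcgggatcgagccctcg
The CDK4 window of the same length lies at chr12:57752261-57752560 on the minus strand. Capitals mark the E-box CACGTG, the letters bound by MYC and MAX.
CDK4 promoter: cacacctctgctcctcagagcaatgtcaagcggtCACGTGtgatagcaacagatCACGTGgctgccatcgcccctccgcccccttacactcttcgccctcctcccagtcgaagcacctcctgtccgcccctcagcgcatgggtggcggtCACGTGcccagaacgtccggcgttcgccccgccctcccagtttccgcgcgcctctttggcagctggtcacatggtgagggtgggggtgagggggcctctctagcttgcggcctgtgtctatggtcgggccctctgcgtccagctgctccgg

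The E2F letters searched were TTTCCCGC, TTTCGCGC, TTTGCCGC and TTTGGCGC on both strands. Of 35116 RefSeq windows of 300 bases, 3.31% held at least 1 match and 0.145% held 2 or more. The E2F1 window held 2, TTTGCCGC on the reverse strand from base 218 of the window and TTTGGCGC on the forward strand from base 231, which do not overlap. CACGTG is its own reverse complement and was counted once per position. It was present in 7.26% of all windows and at least 3 times in 0.094%, and the CDK4 window held 3, from bases 35, 55 and 150. RefSeq windows were matched for 7 of the 9 members, 11 windows in all. E2F letters were found in E2F1 alone among these 7, and CACGTG in CDK4 and in 1 of the 2 CDK6 windows. The 2 printed windows were chosen for their matches, so the shares beside them are descriptive and no test. A match is a description of the letters and no measure of binding.

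The cell type was checked once, by marker genes. Of 9 plasma cell markers, 6 had a probe set, and the mean of each over the arrays passed the level filter used for testing. IRF4, a plasma cell transcription factor gene, averaged 10.33 log2 units in U266, 10.54 in RPMI8226 and 10.86 in KMS11. CD38 averaged 9.95 in RPMI8226, against 4.90 in KMS11 and 3.95 in U266, and SLAMF7 averaged 7.48 in U266, against 3.56 in RPMI8226 and 3.37 in KMS11, so not every plasma cell marker was high in every line. The B cell markers with a probe set, PAX5 and CD22, averaged 4.09 and 2.87. Of the 3 T cell markers CD8A alone passed the filter, and of the 3 myeloid markers none did. The 4 stromal markers were not analysed here.

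CCND1, CDK6 and RB1 differed most between the lines among the members. CCND1 was 14.6-fold higher in U266 than in KMS11, CDK6 was 12.8-fold higher in KMS11 than in U266, and RB1 was 11.3-fold higher in RPMI8226 than in U266. U266, the line with the highest CCND1, was also the line with the lowest CCND2, CDK4, CDK6, CDKN2A and RB1. These are differences of log2 values between lines, each line with 2 arrays, tested in limma with the treatment as a term. In such bulk RNA, fewer cells with a transcript and less of it per cell cannot be told apart.

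In that fit 8 of the 9 members were tested, CCND3 being below the filter on mean level. All 8 differed between lines by the F test at an adjusted p under 0.05, where 82.4% of the 7442 tested genes did, so the count alone does not set them apart. Every tested member averaged above the filter of 4.70 log2 units in each line, the lowest line mean being 4.87. The span from the lowest to the highest line mean had a median of 2.07 log2 units over the 8 members and 0.77 over all tested genes. A span of 2 log2 units or more, together with a call by the F test, was found in 4 of 8 members, against 9.9% of tested genes. CCND1, CDK6, RB1 and CCNE1 formed this group. The members were chosen with earlier results of these data known, so these shares are descriptive and no test.

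**Figure D1:**
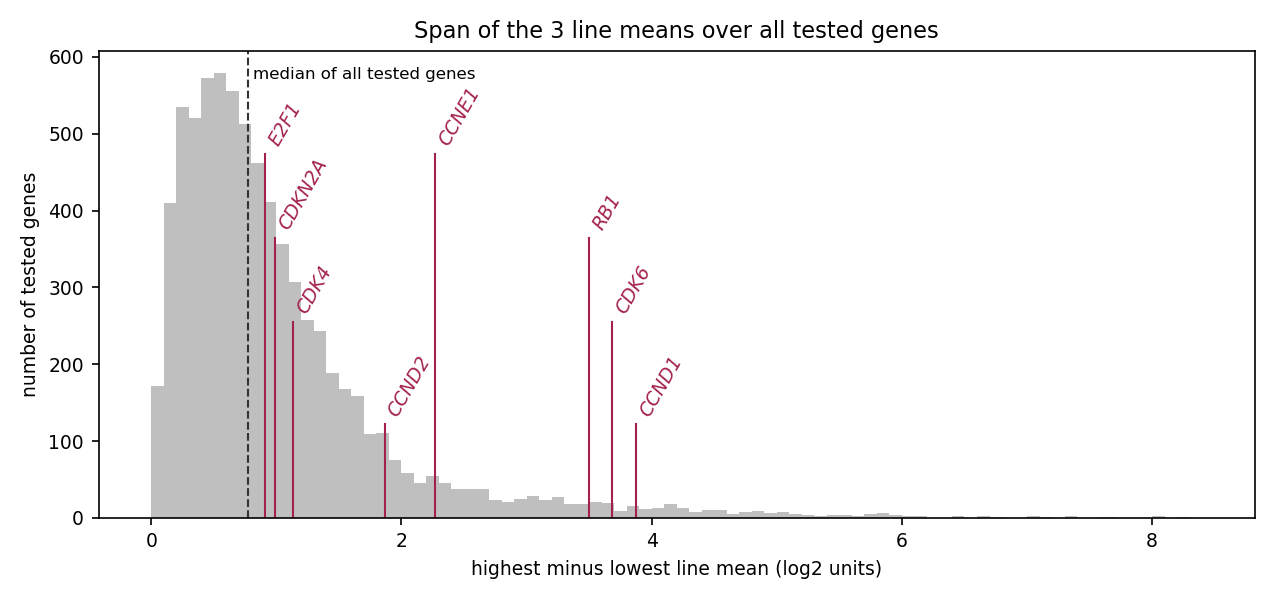
Histogram of the span of the 3 line means (highest minus lowest, log2 units, x axis) over the 7442 tested genes (number of genes, y axis). Vertical red lines mark the 8 tested members, and the dashed line marks the median of all tested genes, 0.77. CCND1, CDK6 and RB1 lie in the right tail, at spans of 3.87, 3.68 and 3.50, and E2F1 lies nearest to the median, at 0.91.

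Pairwise, 7 of the 8 members differed between RPMI8226 and KMS11 (background 65.0% of tested genes), 3 of them higher in RPMI8226 (background 29.4%) and 4 higher in KMS11 (background 35.6%). Between RPMI8226 and U266, 7 differed (background 67.4%), 5 higher in RPMI8226 (background 32.4%) and 2 higher in U266 (background 35.1%). Between KMS11 and U266 all 8 differed (background 63.8%), and 7 of them were higher in KMS11 (background 34.0%). CCND1 was the exception there, the 1 member higher in U266 (background 29.8%). All 3 pairwise tests called CCND1, CCND2, CCNE1, CDK4, CDK6 and RB1, and 32.7% of all tested genes. The 3 comparisons share arrays, so their counts are not independent.

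CCND1, encoding cyclin D1, read 9.98 log2 units with control and 10.0 with mimic in U266. The RPMI8226 pair read 7.22 with control and 7.33 with mimic, and the KMS11 pair 6.13 and 6.10. The order was U266, RPMI8226, KMS11, with no overlap between lines. U266 exceeded KMS11 by 3.87 log2 units (SE 0.08, limma's adjusted p = 2.58e-06) and RPMI8226 by 2.71, or 6.55-fold (SE 0.08, adjusted p = 3.93e-06). RPMI8226 exceeded KMS11 by 1.16 log2 units, or 2.24-fold (adjusted p = 9.42e-05). A span as wide as that of CCND1 was found in 2.41% of tested genes.

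CCND2, encoding cyclin D2, ran in another order. In log2 units RPMI8226 read 10.40 with control and 10.36 with mimic, KMS11 read 9.42 and 9.35, and U266 read 8.58 and 8.44. The lines did not overlap, and the steps were alike in size, RPMI8226 over KMS11 by 1.99-fold (difference 0.99 log2 units, SE 0.08, limma's adjusted p = 0.000152) and KMS11 over U266 by 1.84-fold (0.88, adjusted p = 0.000272). CCND2 has another probe set on the array with lower values. That probe set gave the same order, reading 7.29 with control and 7.17 with mimic for RPMI8226, 6.39 and 6.29 for KMS11, and 5.66 and 5.76 for U266. A span as wide as the 1.87 log2 units of CCND2 was found in 11.4% of tested genes.

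CCND3, encoding cyclin D3, averaged 4.43 log2 units over the arrays, just under the filter of 4.70. KMS11 read 4.70 log2 units with control and 4.74 with mimic, RPMI8226 read 4.41 and 4.26, and U266 read 4.11 and 4.34. KMS11 stood above the other lines, whose arrays overlapped. In the fit of all 14884 named genes without the filter, the F test called CCND3 (adjusted p = 0.0314), as it did 50.8% of those genes. KMS11 exceeded U266 by 0.49 log2 units (SE 0.12, adjusted p = 0.021), a contrast in which 37.1% of genes were called. That call was lost without the KMS11 control array (adjusted p = 0.102), without the KMS11 mimic array (adjusted p = 0.0978) and without the U266 control array (0.35 log2 units, adjusted p = 0.149). KMS11 exceeded RPMI8226 by a margin just short of the threshold (RPMI8226 minus KMS11 -0.38 log2 units, adjusted p = 0.0525 in limma). Over the arrays left out in turn, that difference ranged from -0.52 to -0.24 log2 units. RPMI8226 and U266 differed by 0.11 log2 units, with a 95% confidence interval from -0.18 to 0.41.

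**Figure D2:**
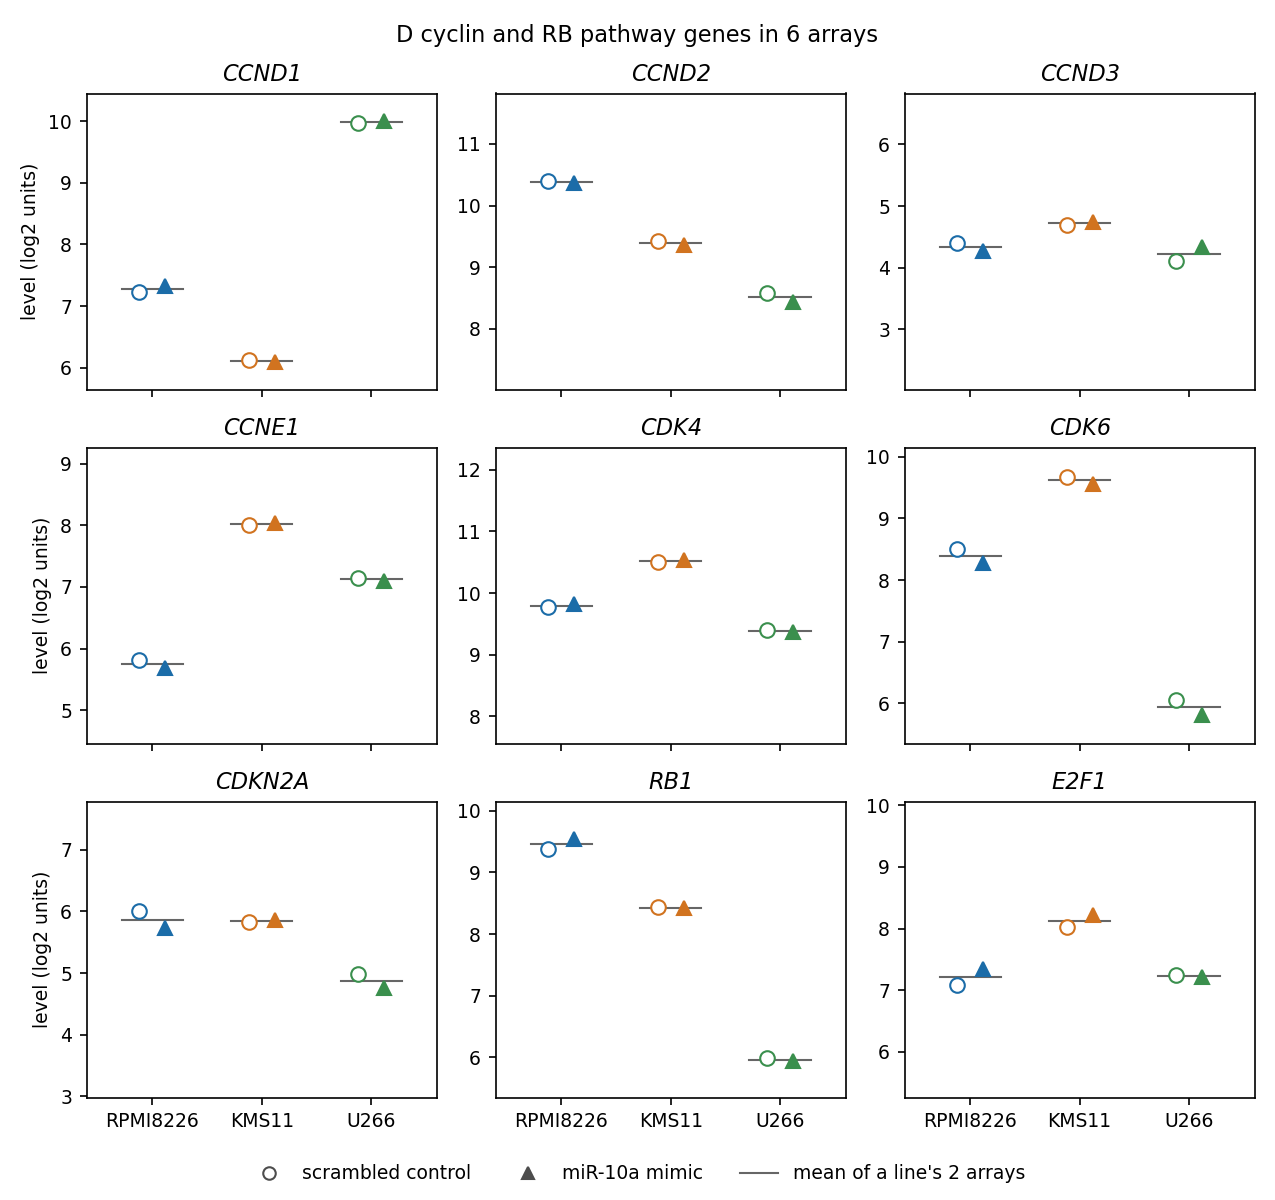
Level in log2 units (y axis) of the 9 members in RPMI8226, KMS11 and U266 (x axis), with open circles for the scrambled control array, triangles for the miR-10a mimic array and bars for the mean of a line's 2 arrays. Each panel covers the same height of log2 units, so distances can be compared between panels but levels cannot. The 2 arrays of a line lie within 0.26 log2 units of each other in every panel, while CCND1, CDK6 and RB1 separate the lines by more than 3 log2 units.

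The kinases differed in how far apart the lines lay. CDK6 read 9.68 log2 units with control and 9.56 with mimic in KMS11. RPMI8226 read 8.51 with control and 8.28 with mimic, and U266 read 6.05 and 5.82. KMS11 exceeded U266 by 3.68 log2 units (SE 0.08, limma's adjusted p = 2.61e-06), RPMI8226 exceeded U266 by 2.46, or 5.49-fold (adjusted p = 5.53e-06), and KMS11 exceeded RPMI8226 by 1.23, or 2.34-fold (adjusted p = 7.59e-05). Only 2.71% of tested genes had a span as wide.

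CDK4 ran in the same order at a smaller distance. KMS11 read 10.51 log2 units with control and 10.54 with mimic, RPMI8226 read 9.78 and 9.81, and U266 read 9.40 and 9.38. KMS11 exceeded U266 by 1.14 log2 units, or 2.20-fold (SE 0.08, limma's adjusted p = 9.27e-05), and RPMI8226 exceeded U266 by 0.41, or 1.33-fold (adjusted p = 0.00471). The 2 arrays of a line differed by at most 0.04 log2 units. Still, 30.2% of tested genes had a span as wide as that of CDK4.

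CDKN2A encodes the INK4 inhibitor p16 and, from another first exon, the ARF protein. It has 1 probe set in the annotation, and which of these transcripts it reads cannot be told from the files. RPMI8226 read 6.0 log2 units with control and 5.74 with mimic, KMS11 read 5.83 and 5.86, and U266 read 4.99 and 4.76. The arrays of RPMI8226 and KMS11 overlapped, with a difference of 0.02 log2 units and a 95% confidence interval from -0.23 to 0.28 (limma's adjusted p = 0.849). U266 was lower than KMS11 by 0.97 log2 units, or 1.96-fold (SE 0.10, adjusted p = 0.000441), and lower than RPMI8226 by 0.99 (adjusted p = 0.000344). A span as wide as that of CDKN2A was found in 36.7% of tested genes.

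RB1, encoding the pocket protein that the D cyclin kinases phosphorylate, was lowest in U266. The U266 pair read 5.98 log2 units with control and 5.95 with mimic, the KMS11 pair 8.44 and 8.42, and the RPMI8226 pair 9.38 and 9.55. RPMI8226 exceeded U266 by 3.50 log2 units (SE 0.09, limma's adjusted p = 2.36e-06) and KMS11 exceeded U266 by 2.46, or 5.52-fold (adjusted p = 1.02e-05). RPMI8226 exceeded KMS11 by 1.04 log2 units, or 2.05-fold (adjusted p = 0.000199). A span as wide was found in 3.24% of tested genes. The files give no detection calls, so how far the 5.96 log2 units of U266 lie above background is not known.

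E2F1, an activating E2F factor gene, was higher in KMS11 and overlapped between the other lines. KMS11 read 8.03 log2 units with control and 8.23 with mimic, U266 read 7.25 and 7.21, and RPMI8226 read 7.09 and 7.34. KMS11 exceeded U266 by 0.90 log2 units, or 1.86-fold (SE 0.10, limma's adjusted p = 0.000582), and RPMI8226 by 0.91 (adjusted p = 0.000492). RPMI8226 minus U266 was -0.02 log2 units, with a 95% confidence interval from -0.26 to 0.23 (adjusted p = 0.903), and 0.048 after quantile normalization. A span as wide as that of E2F1 was found in 41.3% of tested genes. U266, where RB1 was lowest, had an E2F1 level inside the range of RPMI8226, where RB1 was highest. A link between the levels of RB1 and E2F1 was not tested.

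CCNE1, encoding cyclin E1, an E2F target and the activator of CDK2, was lowest in RPMI8226. RPMI8226 read 5.81 log2 units with control and 5.69 with mimic, U266 read 7.15 and 7.10, and KMS11 read 8.01 and 8.03. KMS11 exceeded RPMI8226 by 2.27 log2 units, or 4.82-fold (SE 0.08, limma's adjusted p = 9.46e-06), and U266 exceeded RPMI8226 by 1.37, or 2.59-fold (adjusted p = 4.37e-05). KMS11 exceeded U266 by 0.89, or 1.86-fold (adjusted p = 0.000278). CCNE1 was the 1 member with RPMI8226 below both other lines beyond the spread of the arrays, and 8.0% of tested genes had a span as wide.

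Among the other genes of the pathway, RPMI8226 was the lowest line more often than either other line. The lists below were written with earlier results of these data known and are described by counts. Of 88 listed genes 59 were tested, and the F test called 54 of them, or 91.5%, against 82.4% of all tested genes. Of the 54, RPMI8226 was lowest in 27, U266 in 18 and KMS11 in 9, and KMS11 was highest in 28. Among all 6135 called genes RPMI8226 was lowest in 2301, U266 in 2128 and KMS11 in 1706, and KMS11 was highest in 2146.

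Of 9 tested genes for other cyclins, kinases and activators of G1 and S phase, 8 were called (88.9%, against 82.4% of all tested genes). Of the 8 called, 5 were lowest in RPMI8226 and 6 highest in KMS11. RPMI8226 minus KMS11 had a median of -1.04 log2 units over the 9 genes (-0.045 over all tested genes). CCNE2, the paralog of CCNE1, averaged 6.27 log2 units in RPMI8226, 8.74 in KMS11 and 8.59 in U266 (F test in limma, adjusted p = 1.34e-05). CCNB1, a mitotic cyclin gene, averaged 6.84, 8.68 and 8.41 in these lines, and CDK1, its kinase, 7.42, 8.45 and 8.82. CDK2, the kinase of cyclin E, was highest in KMS11, at 9.68, against 8.03 in RPMI8226 and 8.14 in U266. CDC25A, a phosphatase gene that activates CDK2, went the other way, at 6.57 in KMS11, 6.83 in U266 and 7.62 in RPMI8226.

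Of 13 tested genes for pocket proteins, E2F and DP factors and the MuvB core, 12 were called (92.3%, against 82.4% of all tested genes). Of the 12 called, 7 were lowest in RPMI8226 and 6 highest in KMS11. MYBL2, encoding the MYB factor that joins MuvB on mitotic genes, averaged 8.27 log2 units in RPMI8226, 10.70 in KMS11 and 10.26 in U266 (F test in limma, adjusted p = 6.69e-06). LIN54, the DNA-binding MuvB subunit, averaged 6.73, 8.28 and 6.77, and LIN37, another subunit, 6.53, 7.36 and 7.58. TFDP2, a DP partner of E2F, averaged 7.05, 7.47 and 6.06. RBL1 and RBL2, the pocket protein genes related to RB1, are given because of the low RB1 in U266. They were added after their values were seen, and a link to RB1 was not tested. RBL1 averaged 8.19, 8.81 and 7.98, and RBL2 8.57, 7.78 and 7.97, so the line means of both lay within 1 log2 unit, against 3.50 for RB1.

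Among E2F target genes of DNA replication, 25 were tested and 23 called (92%, against 82.4% of all tested genes). RPMI8226 was the lowest line for 11 of the 23, while KMS11 and U266 were lowest for 6 each. The 25 tested genes had a median span of 0.81 log2 units, against 0.77 over all tested genes. Their median for KMS11 minus U266 was 0.03 log2 units. Of them, 9 were called higher in KMS11 (background 34.0%) and 9 higher in U266 (background 29.8%). EZH2, a Polycomb methyltransferase gene, had the widest span and averaged 8.35 log2 units in RPMI8226, 9.98 in KMS11 and 9.0 in U266 (F test in limma, adjusted p = 4.56e-05). CDC45, a replicative helicase gene, averaged 6.09, 7.66 and 6.96. TYMS, the thymidylate synthase gene, averaged 8.77, 9.80 and 10.32, and GINS2, of the same helicase as CDC45, 5.49, 6.89 and 6.76.

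**Figure D3:**
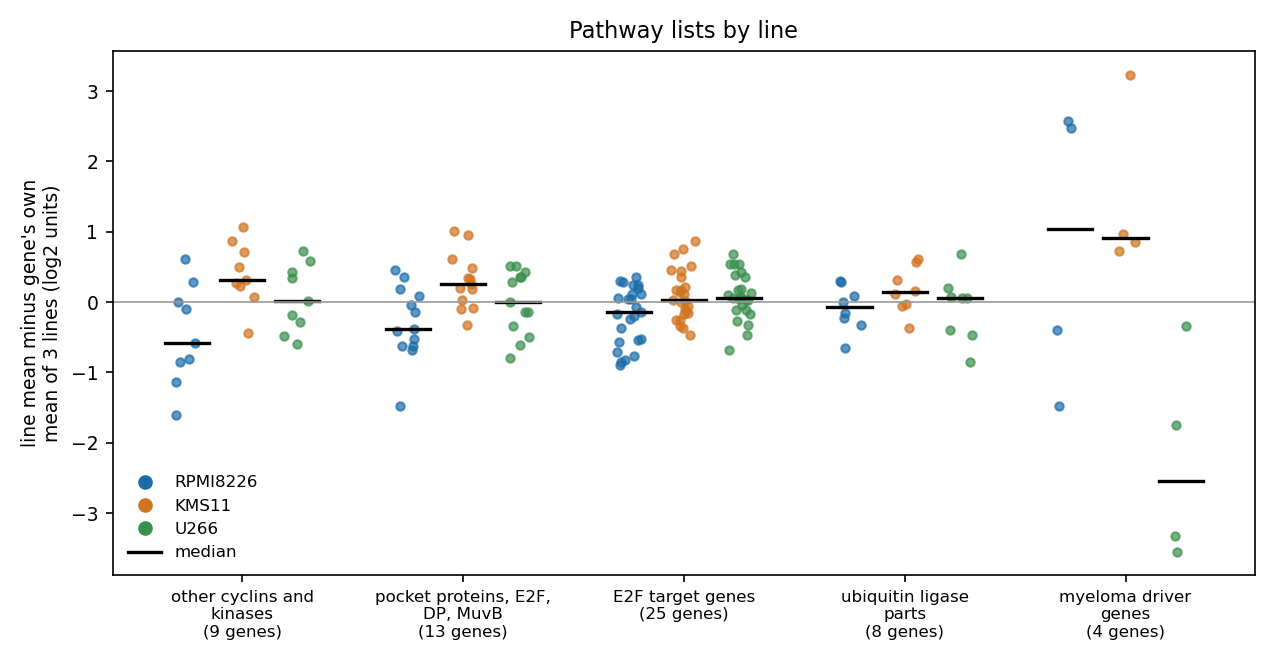
Line mean minus the gene's own mean of the 3 line means (log2 units, y axis) for the tested genes of 5 pathway lists (x axis), 1 point per gene and line, coloured by line, with black bars for medians. RPMI8226 has the lowest of the 3 medians in every list but the myeloma driver genes, where U266 has.

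Among 8 tested ubiquitin ligase genes that act on cyclins or CDK inhibitors, 7 were called (87.5%, against 82.4% of all tested genes). CUL1, the scaffold of the SCF ligases, was lowest in U266, at 8.75 log2 units against 9.90 in RPMI8226 and 10.17 in KMS11 (F test in limma, adjusted p = 4.32e-05). CKS2 was highest in U266, at 9.46 against 8.12 and 8.75. DTL, the substrate receptor of a CUL4 ligase, averaged 9.87, 10.63 and 9.56 in RPMI8226, KMS11 and U266, and CKS1B, the SCF cofactor for degradation of the inhibitor p27, 7.83, 8.06 and 7.34. The 5 other CDK inhibitor genes listed (CDKN1A, CDKN1B, CDKN1C, CDKN2B and CDKN2D) were not analysed here.

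The 4 tested genes recalled as upstream drivers of D cyclins had the widest median span of the lists, 5.39 log2 units. MAF averaged 10.57 log2 units in RPMI8226, 8.94 in KMS11 and 4.77 in U266. CCND2 had the same order of lines with smaller steps. MYC averaged 10.79, 9.19 and 4.68, with U266 lowest, as for CDK4 and CDK6. The highest line was not shared, being RPMI8226 for MYC and KMS11 for CDK4 and CDK6. FGFR3 averaged 3.94, 8.66 and 3.67, and NSD2 6.70, 7.82 and 6.75, both highest in KMS11. With 3 lines many genes share an order, and no test links these genes to the members.

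For the members with spans of 2 log2 units or more, the tested genes nearest in pattern were found by Euclidean distance over the 6 arrays, each gene centred on its own mean. For CCND1, whose own pattern had a length of 3.98 log2 units, they were ZIK1 at a distance of 0.38, SDC1 at 0.58 and CTAG2 at 0.68. SDC1, the gene of the plasma cell surface proteoglycan CD138, averaged 7.23 log2 units in RPMI8226, 5.62 in KMS11 and 9.49 in U266. For CDK6 the nearest were ZNF804A at 0.34, ATF3 at 0.45 and HSD17B11 at 0.46. ATF3, a stress-induced transcription factor gene, averaged 7.39, 8.32 and 4.95. For RB1 they were ZHX2 at 0.37, NIPAL2 at 0.46 and ADAM15 at 0.51, and for CCNE1 GYS1 at 0.13, MED12 at 0.27 and CA2 at 0.28. The median distance over all genes was 4.08 for CCND1, 3.80 for CDK6, 3.67 for RB1 and 2.37 for CCNE1. Some of these neighbours averaged below the level filter in their lower lines. ZIK1 averaged 4.41 log2 units in RPMI8226 and 3.30 in KMS11, and CTAG2 4.21 and 3.63. For U266, ZNF804A averaged 3.20, ZHX2 3.97 and NIPAL2 3.28. The other neighbours named here averaged above the filter in each line. Without detection calls such low values are uncertain, and their part in the distances was not tested. The distances rest on 3 lines and describe likeness of level only.

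The miR-10a mimic was then compared with the scrambled control. No member changed past the threshold, as was so for all 7442 tested genes (0.0% called in limma with the line as a block). CDK6 was lower with mimic in 3 of 3 lines and E2F1 was higher in 2 of 3, and both changes were small. The smallest adjusted p among the 8 tested members was 0.893, for CDK6. At an unadjusted p under 0.05 stood 1 of the 8 members, and 403 of 7442 genes (5.42%). The median absolute change was 0.07 log2 units over the 8 members and 0.06 over all tested genes.

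CDK6 had the widest mean change of the members, -0.19 ± 0.07 log2 units (SD, n = 3 lines). From the levels given above, mimic minus control was -0.23 in RPMI8226 as in U266, and -0.11 in KMS11. The 95% confidence interval ran from -0.36 to -0.03, with an unadjusted p of 0.0299 in limma and an adjusted p of 0.893. In the fit of all named genes without the filter the interval ran from -0.39 to 0.0062 and held 0 (unadjusted p = 0.0555 in limma). A mean change as wide was found in 7.83% of tested genes. The shift was small beside the 3.68 log2 units that separated KMS11 from U266.

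CDKN2A had a mean change of -0.16 ± 0.16 log2 units (SD, n = 3 lines), with 0.03 in KMS11 against -0.26 for RPMI8226 and -0.23 for U266. Its limma adjusted p was 0.917. E2F1 had a mean change of 0.14 ± 0.16, with -0.04 in U266 against 0.25 for RPMI8226 and 0.20 for KMS11 (limma's adjusted p = 0.917). For CCND2 the change was -0.08 ± 0.06, negative in all 3 lines, but its other probe set gave 0.10 in U266. Same signs in all 3 lines were seen in 2 of 8 members, CDK6 and CCND2, and in 26.5% of all tested genes.

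The remaining members changed less. CCND1 gave 0.03 ± 0.07 log2 units (SD, n = 3 lines), and -0.0066 without RPMI8226. RB1 gave 0.04 ± 0.11, or -0.027 without RPMI8226, and CDK4 gave 0.01 ± 0.03, or -0.0041 with array medians set equal. CCNE1 gave -0.05 ± 0.07. CCND3, below the filter, gave 0.04 ± 0.18, or -0.054 without U266, with 0.22 in U266, 0.04 in KMS11 and -0.15 in RPMI8226. Of the 24 changes of tested members in single lines, 1 reached 1.2-fold and 0 reached 1.5-fold. The 95% confidence interval of the mean change lay within 1.5-fold in either direction for all 8 tested members, as it did for 97.6% of tested genes, without correction for the number of genes.

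**Figure D4:**
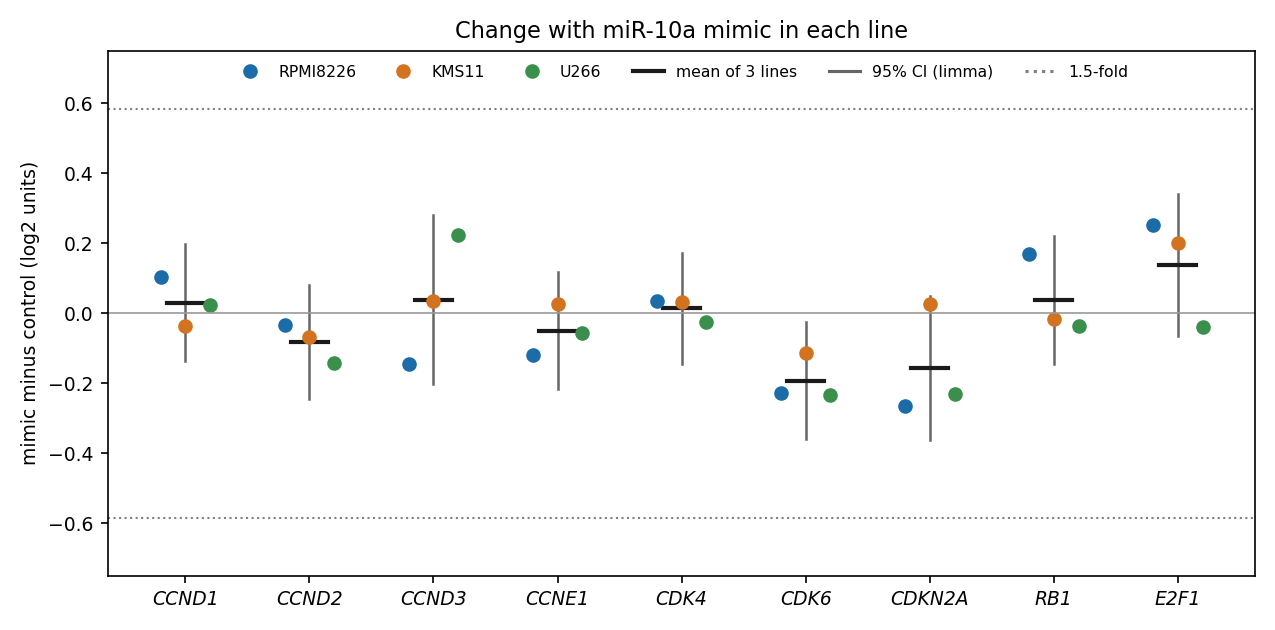
Mimic minus control in log2 units (y axis) for the 9 members (x axis), with a coloured point for each line, a thick bar for the mean of 3 lines, a thin line for limma's 95% confidence interval and dotted lines at 1.5-fold. CCND3 comes from the fit without the level filter. No interval reaches 1.5-fold, and the CDK6 interval, from -0.36 to -0.03, is the one that leaves out 0, which it does not in the fit without the filter.

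Whether a line responded unlike the other lines was tested by letting that line have a mimic effect apart from the shared one. No member was called in any of the 3 fits, and the smallest adjusted p among the members was 0.832 in limma, for RB1 in RPMI8226. Over all genes 0 were called (0.0% in each fit), with 480, 298 and 471 genes at an unadjusted p under 0.05 for RPMI8226, KMS11 and U266, and 0 of the 8 members among them. These fits left 1 residual degree of freedom.

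The pathway lists gave no call with mimic either. Of 59 tested genes 0 passed the adjusted threshold in limma and 0 had an unadjusted p under 0.05, with 33 higher and 26 lower by sign and a median change of 0.0086 log2 units (-0.0029 over all tested genes). TFDP2 had the widest mean change among them, 0.19 ± 0.19 (SD, n = 3 lines), with 0.41 in U266. CDC25A gave 0.17 ± 0.19, with 0.39 in RPMI8226. E2F7, encoding a repressive E2F factor, gave -0.14 ± 0.09, and EZH2 gave -0.12 ± 0.09. Other genes named by rule for their mimic change follow. MCM7, a replicative helicase subunit, gave 0.11 ± 0.10, CCNH -0.10 ± 0.17, FBXO4 -0.10 ± 0.11 and CUL4A 0.07 ± 0.06. Among the driver genes MYC gave -0.15 ± 0.31 and MAF 0.11 ± 0.25. All of these lie above an adjusted p of 0.05 in limma.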

How the data were processed

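Values were used as the authors deposited them, on a log2 scale, for 53617 probe sets of 6 arrays. Per the submitters' processing notes they came from Affymetrix Expression Console 1.3.0. How background, normalization and summarization were handled, and on which genome build, is not given in the sources used here, and centring between arrays is unknown. Array medians lay between 3.61 and 3.66 log2 units. The table holds no detection calls, so low values are uncertain, and levels of different probe sets are not compared. The number of arrays limits the precision.

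The platform annotation gave 1 symbol to 16098 probe sets, several to 0 and none to 37519. Of 14884 genes, 7442 were tested, those whose mean reached the median of all genes (4.70). Limma 3.58.1 in R 4.3.3 (lmFit, eBayes, no trend) fitted line and treatment, with two-sided p-values and Benjamini-Hochberg adjustment over all tested genes at 0.05. The fit had 2 residual and 3.82 prior degrees of freedom. The cell line, RPMI8226 being spelled RPI8226 in 1 label field, pairs the arrays, and deviations of a line's 2 arrays from their treatment means correlated at 0.967 to 0.97 across genes. The scripts were tested on simulated data. Alternatives were no or stricter filters on level, quantile normalization, equal array medians, a variance trend, the mean of probe sets, no line term, 1 treatment alone and each array or pair left out. All 10 listed genes were to be named. In each list, up to 4 called genes with the widest spans and 2 with the widest mimic changes were named, with 3 nearest genes for each member spanning 2 log2 units or more. RBL1, RBL2 and the cell type markers were named beside that rule, RBL1 and RBL2 after their values were seen. Members and lists were chosen with earlier results of these data known.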

Additional observations from a re-analysis of the deposited data

How the results depend on the processing

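All 22 called line contrasts of the tested members stayed called in every alternative fit in which they could be tested. None took the opposite sign in the control arrays or the mimic arrays alone. In the upper 25% of genes by level 7 of the 8 members were left, and the lines differed in 3474 genes instead of 6135. With array medians set equal, the CDK4 mimic change was -0.0041 log2 units, and after quantile normalization RPMI8226 minus U266 was 0.048 for E2F1. The mimic effect of 1 line against the others, with 0 genes called, gave 15 genes for KMS11 and 28 for U266 with a variance trend, and 10 for U266 in the upper 25%, none of them a member. The cause was not tested.

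With the pairing by line left out (no replicate block), 0 genes were called with mimic, as with it. Over the arrays or pairs left out in turn, the lines differed in 5729 to 5978 genes. The mimic change ranged from -0.0066 to 0.063 for CCND1, from -0.027 to 0.077 for RB1 and from -0.054 to 0.13 for CCND3. RPMI8226 minus KMS11 of CDKN2A ranged from -0.11 to 0.16, RPMI8226 minus U266 of E2F1 from -0.15 to 0.12, and that of CCND3 from -0.027 to 0.25. The CCND3 alternatives were chosen after seeing the data. Low signals and 2 arrays a line limit what small differences can be told.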
